A study of Sus scrofa with 12 samples.

Results

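The genes described here are the proteasome subunits, their regulators and their assembly factors in porcine coronary artery smooth muscle cells. They were taken as every row of the deposited count table whose Ensembl identifier pairs with a pig symbol starting with PSMA, PSMB, PSMC, PSMD, PSME, PSMF or PSMG and a digit, with at least 10 counts in 3 or more of the 12 libraries. Of 21153 rows, 43 had such a symbol and 41 met the count minimum, and all 41 were among the 12444 genes tested. The other two, PSMA8 and PSMB11, had 0 counts in every library, which allows at most 0.140 CPM (a gene's counts scaled to its library's total) in the shallowest library, counting error only. Of the 41 genes, 39 encode proteasome subunits, regulators or assembly chaperones. PSMC3IP, a factor of meiotic recombination, and PSME3IP1, named for its interaction with PSME3, meet the rule by their letters only and are kept apart below. No row was matched by symbol to PSMA6, PSMB5, PSMB6, PSMD2, PSMG1, PSMG2 or PSMG4, and those are not analysed here.

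The proteasome degrades proteins tagged with ubiquitin. Its 20S core is a barrel of alpha and beta rings whose beta subunits carry the catalytic sites, and the 19S cap on its ends recognises, de-ubiquitinates, unfolds and threads in the substrate. In cells exposed to inflammatory signals the catalytic subunits PSMB5, PSMB6 and PSMB7 can be replaced by PSMB8, PSMB9 and PSMB10, giving the immunoproteasome, which is known for cutting peptides that suit MHC class I. Other caps (PSME1 with PSME2, PSME3, or PSME4) and an inhibitor (PSMF1) bind the same core.

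The study exposed primary smooth muscle cells of porcine coronary artery, labelled as differentiated and contractile, to PDGF-BB, a growth factor for these cells, to S100A4, a calcium-binding protein that cells can release, or to both. The cells, of passages 6 to 11, were plated at 60 per mm2 in 35 mm dishes with 10% fetal calf serum, and 24 h later were given 30 ng/ml PDGF-BB, 1 µg/ml S100A4, the combination, or neither protein (control) for 4 h. In the design text the protein appears as oS100A4, a prefix that is not spelled out. Each of the 4 groups had 3 libraries, numbered 1 to 3, and the design text says that cells of 3 different animals were used without saying which number is which animal. All p-values therefore reflect only how much these libraries vary among themselves.

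Counts per library summed to between 21455021 and 32448438. Replicate 2 stood apart in every group, and its part in the results below was not tested beyond the fits that leave it out. The summed level of 7 smooth muscle markers (ACTA2, MYH11, CNN1, TAGLN, SMTN, LMOD1, MYLK) was 8134 to 9740 CPM in its 4 libraries and 17776 to 22146 CPM in the other 8, and 4 fibroblast markers summed to 839 to 969 CPM against 246 to 433 CPM. All 7 smooth muscle markers had counts in every library, TAGLN with 83 to 213 counts, and by treatment their sum spanned overlapping ranges, 9740 to 22146 CPM in control and 8134 to 19181 CPM with both proteins. The 4 endothelial markers with a row summed to 53.5 to 59.0 CPM in replicate 2 and to 19.1 to 37.9 CPM elsewhere, with KDR at 0 to 4 counts. Of 8 leukocyte and macrophage markers, PTPRC, CD3E and CD2 had 0 counts throughout and the list summed to 7.51 to 11.9 CPM. In bulk RNA, fewer cells of a type and less RNA per cell cannot be told apart.

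The proteasome genes also differed between replicate numbers, by less than the genes tested as a whole. Averaged over the 4 treatments, 29 of the 39 proteasome genes were highest in replicate 2, 7 in replicate 3 and 3 in replicate 1. The same count over all genes was not made, and a link to the marker differences was not tested. The median gap between the highest and lowest replicate number was 0.12 on the log2 scale for the 39 genes and 0.31 for all genes tested. PSMF1 had a gap of 0.35 and was highest in replicate 3, at 44.5 CPM, against 37.3 CPM in replicate 1 and 34.8 CPM in replicate 2. Because a treated library tracked the control of its own number, each comparison was fitted with the 4 group means alone and again with the replicate number as a block, that is, with treatments compared within a number. Adjusted p-values come from edgeR's quasi-likelihood test with Benjamini-Hochberg adjustment over the 12444 genes, n = 3 libraries a group, and the fit without the block is meant unless the block is named. A gene is said to have risen or fallen where its adjusted p was under 0.05.

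**Figure D1:**
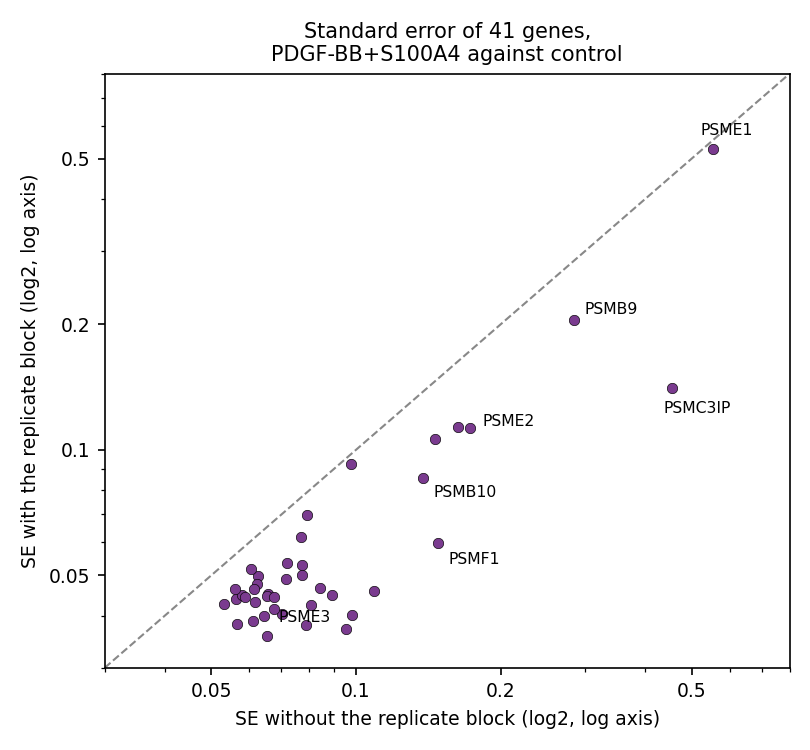
Standard error of the log2 change from control to PDGF-BB+S100A4 for each of the 41 genes, without the replicate block (x axis) and with it (y axis), both axes logarithmic; the dashed line marks equal values. The points lie below the line, with a median of 0.07 without the block and 0.05 with it. PSMC3IP and PSMF1 are among those far below it, as is PSMA7, which is not labelled.

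PDGF-BB raised several proteasome genes by small amounts, led by the nuclear activator cap PSME3 and by non-ATPase subunits of the 19S lid. Of the 41 genes, 5 rose against control, while 9.09% of all genes tested rose, and 0 fell, while 5.62% of all genes fell; 11 of the 41 had an unadjusted p under 0.05 in either direction, and DESeq2 called 7 higher and 0 lower. Over all genes DESeq2 called 2331, 56.9% of them higher. Here and below, the count of all genes at an unadjusted p under 0.05 was not made. With the replicate block, 16 of the 41 rose (background 24.3%) and 1 fell (background 24.5%). The median log2 change of the 41 genes was 0.08, beside −0.02 over all genes tested, and 35 of the 41 lay above 0. Between same-numbered libraries, 25 of the 41 were higher in all 3 pairs (background 33.6%) and 3 were lower in all 3 (background 35.7%). The 3 treated libraries lay above all 3 controls for 14 of the 41 (background 16.3%) and below them for 1 (background 13.5%).

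PSME3 (ENSSSCG00000017385), the subunit of the PA28-gamma cap that works without ubiquitin, showed the largest change with PDGF-BB. Its level in replicates 1, 2 and 3 was 105, 109 and 101 CPM in control and 144, 150.2 and 141 CPM with PDGF-BB. The groups did not overlap, and the increase was 37.9% (log2 change 0.46 ± 0.06 SE, adjusted p = 0.0013). In the 3 same-numbered pairs the log2 difference was 0.45, 0.46 and 0.48. Without replicate 1 the change was 0.47 with an adjusted p of 0.110; with the block, PSME3 passed in all 9 fits that left out a library or a replicate number.

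PSMD14 (ENSSSCG00000015892), the metalloprotease of the 19S lid that removes ubiquitin chains, stood at 62.2, 60.9 and 63.4 CPM in control and at 81.0, 73.7 and 76.8 CPM with PDGF-BB. All 3 treated libraries were above all 3 controls, and the increase was 24.0% (0.31 ± 0.06, adjusted p = 0.0078). The call was lost without replicate 1 (adjusted p = 0.182) and without replicate 3 (0.092), and was kept in all 9 such fits with the block.

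PSMD8 (ENSSSCG00000036658), a scaffold subunit of the lid, had 122, 131 and 111 CPM in control and 154, 152 and 137 CPM with PDGF-BB (0.28 ± 0.08, adjusted p = 0.049). PSMD12 (ENSSSCG00000017273), another lid scaffold subunit, had 63.9, 60.9 and 66.4 CPM in control and 75.5, 75.7 and 80.4 CPM with PDGF-BB (0.28 ± 0.08, adjusted p = 0.038). PSMD7 (ENSSSCG00000032908), the partner of PSMD14 in the lid, had 85.9, 90.0 and 88.0 CPM in control and 101, 101 and 102 CPM with PDGF-BB (0.20 ± 0.06, adjusted p = 0.036). In each of these 3 genes the treated libraries lay above the controls without overlap. The 3 calls rested on the full set: without the block PSMD8 passed in 3 of 9 fits that left out a library or a number, and PSMD12 and PSMD7 in 1 of 9 each, while with the block each passed in all 9. Upper-quartile scaling, a filter-free fit and a fit of the 2 groups alone each ended the unblocked calls of all 3 (adjusted p 0.057 to 0.119), and RLE scaling ended those of PSMD12 and PSMD8 (0.0503 and 0.0594). PSME3 and PSMD14 passed under each of these 4.

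For the role counts that follow, the shares of all genes that rose were 9.09% without the block and 24.3% with it. By role, the 10 lid and base non-ATPase subunits of the 19S cap had 4 genes higher without the block and 8 with it. PSMD4, a ubiquitin receptor, was the one member with a change below 0 (−0.06 ± 0.07). Of the 6 alpha-ring genes 0 passed without the block and 3 with it (PSMA5, PSMA4 and PSMA2, at 0.24, 0.18 and 0.17). Of the 5 constitutive beta-ring genes only PSMB3 passed, with the block (0.17), and of the 6 ATPases of the 19S base only PSMC2 (0.12). Neither count exceeds the blocked share of all genes. Among assembly chaperones, PSMD5, which helps build the 19S base, rose with the block (0.21, adjusted p = 0.0013), and so did PSMG3, a chaperone of the 20S core (0.27, adjusted p = 0.022). PSMD11, PSMD1, PSMD3 and PSMD13 of the 19S cap also rose with the block, by 0.11 to 0.17. Of the 17 blocked calls, 8 held in all 9 fits that left out a library or a number, and 4 in fewer than 5 of them: PSMC2, PSMD3, PSMD13 and PSMG3.

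PSMF1, known as PI31, which blocks the 20S core in vitro, had the opposite sign. Its level was 40.9, 38.6 and 50.5 CPM in control and 37.9, 30.7 and 40.8 CPM with PDGF-BB. The groups overlapped and the change did not pass without the block (−0.25 ± 0.15, adjusted p = 0.34), but each treated library lay below its same-numbered control and with the block PSMF1 fell (−0.25 ± 0.06, adjusted p = 0.0032). Without replicate 3 the blocked call was lost (adjusted p = 0.063). The immunoproteasome genes gave 0 calls with PDGF-BB in either fit: PSMB8 changed by −0.09 ± 0.15, PSMB9 by −0.04 ± 0.28 and PSMB10 by 0.04 ± 0.14.

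**Figure D2:**
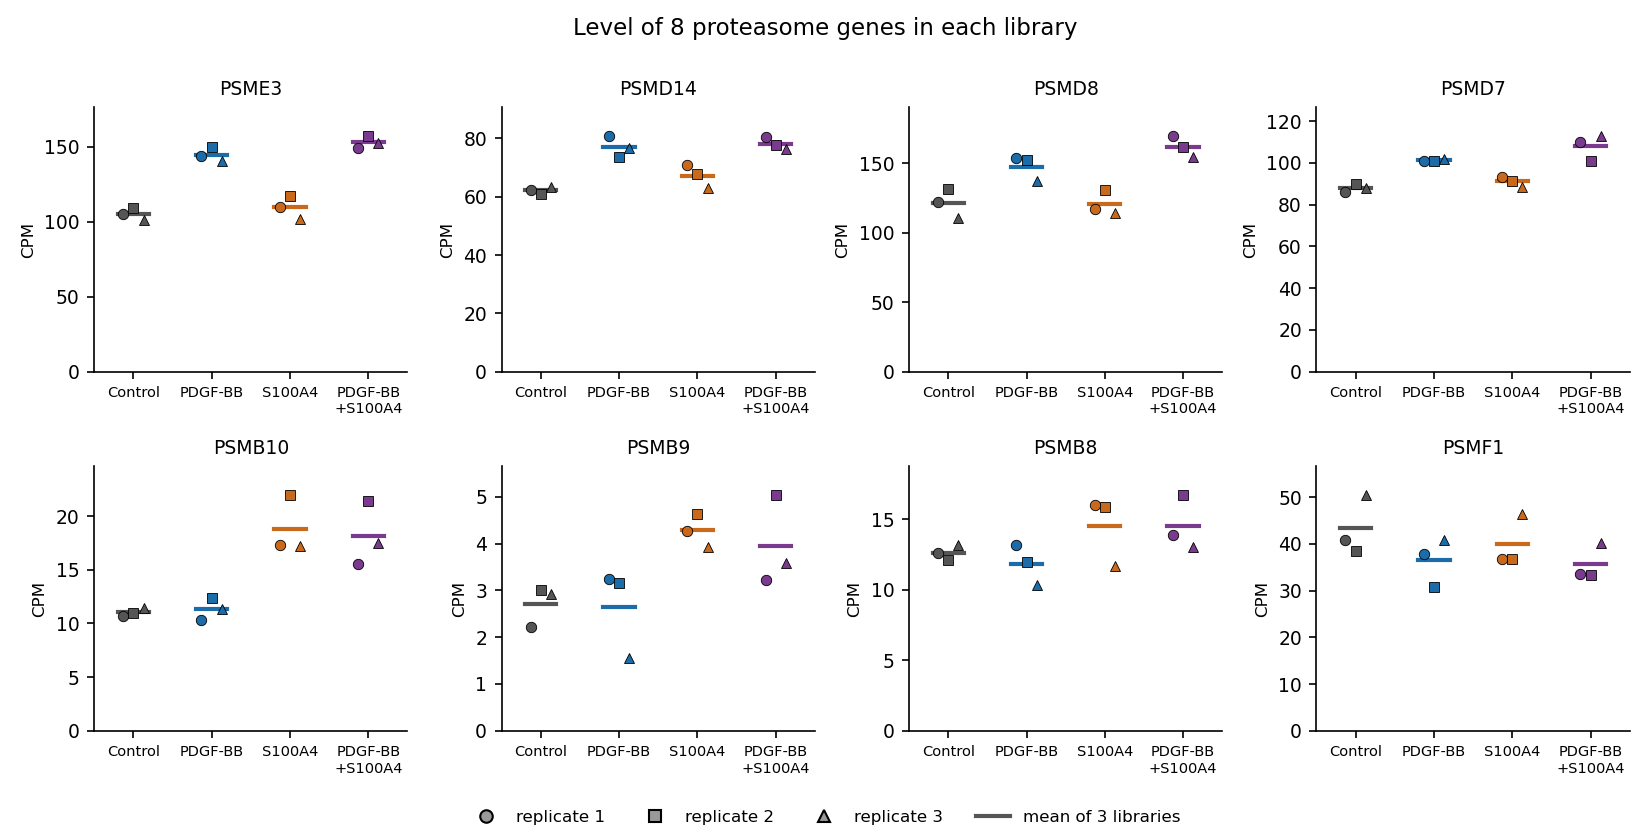
Level in CPM (y axis, from 0) of 8 genes in each of the 12 libraries, by treatment (x axis); symbols give the replicate number and bars the mean of 3 libraries. PSME3, PSMD14, PSMD8 and PSMD7 are higher in both groups that received PDGF-BB, PSMB10 is higher in both groups that received S100A4, and PSMF1 is highest in replicate 3 of every group.

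S100A4 alone left most of these genes without a detectable change and raised PSMB10, a catalytic subunit of the immunoproteasome. Of the 41 genes, 1 rose, while 0.554% of all genes tested rose, and 0 fell, while 0.00804% of all genes fell; 2 of the 41 had an unadjusted p under 0.05, and DESeq2 called 1 higher and 0 lower. Over all genes DESeq2 called 205, 92.7% of them higher. With the block, 2 of the 41 rose (background 6.46%) and 0 fell (background 4.28%), with 4 at an unadjusted p under 0.05. The median log2 change was 0.03, beside −0.02 over all genes tested, and 15 of the 41 were higher in all 3 same-numbered pairs (background 21.5%) and 9 lower (background 26.3%). The groups did not overlap for 6 genes, 5 of them higher (background 5.68%) and 1 lower (background 4.04%).

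PSMB10 (ENSSSCG00000031781), the immunoproteasome subunit that takes the place of PSMB7, was the gene that passed. It stood at 10.7, 11.0 and 11.4 CPM in control and at 17.3, 22.0 and 17.2 CPM with S100A4. The groups were far apart relative to their spread, and the increase was 70.8% (log2 change 0.77 ± 0.14, adjusted p = 0.042; with the block 0.77 ± 0.08, adjusted p = 3.2e-05). The same-numbered differences were 0.69, 1.00 and 0.59. Without the block the call was lost in each of the 9 fits that left out a library or a number (log2 change 0.65 to 0.86, adjusted p 0.066 to 0.634), and with the block it was kept in all 9. RLE scaling, a filter-free fit and a fit of the 2 groups alone also ended the unblocked call (adjusted p 0.051, 0.054 and 0.155).

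PSMB9 (ENSSSCG00000001463), the counterpart of PSMB6, was measured on 48 to 127 counts a library. Its level was 2.21, 3.02 and 2.92 CPM in control and 4.27, 4.64 and 3.93 CPM with S100A4, again without overlap. The change of 0.65 ± 0.28 did not pass without the block (adjusted p = 0.78) and passed narrowly with it (0.67 ± 0.20, adjusted p = 0.049). The blocked call was kept in 1 of the 9 fits that left out a library or a number.

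PSMB8 (ENSSSCG00000026951), the counterpart of PSMB5, had 12.6, 12.1 and 13.2 CPM in control and 16.1, 15.9 and 11.7 CPM with S100A4. Replicates 1 and 2 were higher and replicate 3 was lower, and the change of 0.20 ± 0.15 did not pass in either fit (blocked adjusted p = 0.28). PSMB8 and PSMB9 lie 10.5 kb apart on chromosome 7, at 25058456 to 25061666 and 25072133 to 25077508, while PSMB10 lies on chromosome 6, at 28544910 to 28547609 (RefSeq annotation of Sscrofa11.1).

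Summed over the 3 genes, the immunoproteasome subunits stood at 26.4 ± 1.1 CPM in control (SD, n = 3), 25.8 ± 2.3 CPM with PDGF-BB, 37.7 ± 4.8 CPM with S100A4 and 36.6 ± 5.8 CPM with both. The lowest library with S100A4, alone or combined, was at 32.6 CPM and the highest without it at 27.5 CPM, so the groups did not overlap. Most of the rise was that of PSMB10, at 11.0 CPM on average in control and 18.8 CPM with S100A4. PSMB8 averaged 12.6 and 14.6 CPM in these 2 groups, and PSMB9 2.72 and 4.28 CPM. The leukocyte markers summed to 9.34 to 11.9 CPM in control, 7.51 to 9.68 CPM with PDGF-BB, 9.05 to 11.1 CPM with S100A4 and 7.89 to 9.57 CPM with both. Most of that sum was CD14, at 7.25 CPM on average, and PTPRC, CD3E and CD2 had 0 counts. Whether cell content plays a part in the immunoproteasome levels was not tested.

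Set against PSMB7, the constitutive subunit whose place it takes, PSMB10 shifted in the same way. The log2 ratio of their CPM was −2.98, −3.01 and −2.86 in control and −3.03, −2.95 and −2.91 with PDGF-BB. It was −2.21, −2.02 and −2.24 with S100A4 and −2.62, −2.21 and −2.39 with both. All 6 libraries that received S100A4 had a higher ratio than the 6 that did not; the ratio is not corrected for transcript length, so its shifts between libraries are read and not its level. PSMB7 itself stood at 84.5, 89.2 and 83.1 CPM in control and 80.4, 89.4 and 81.9 CPM with S100A4 (−0.03 ± 0.07).

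**Figure D3:**
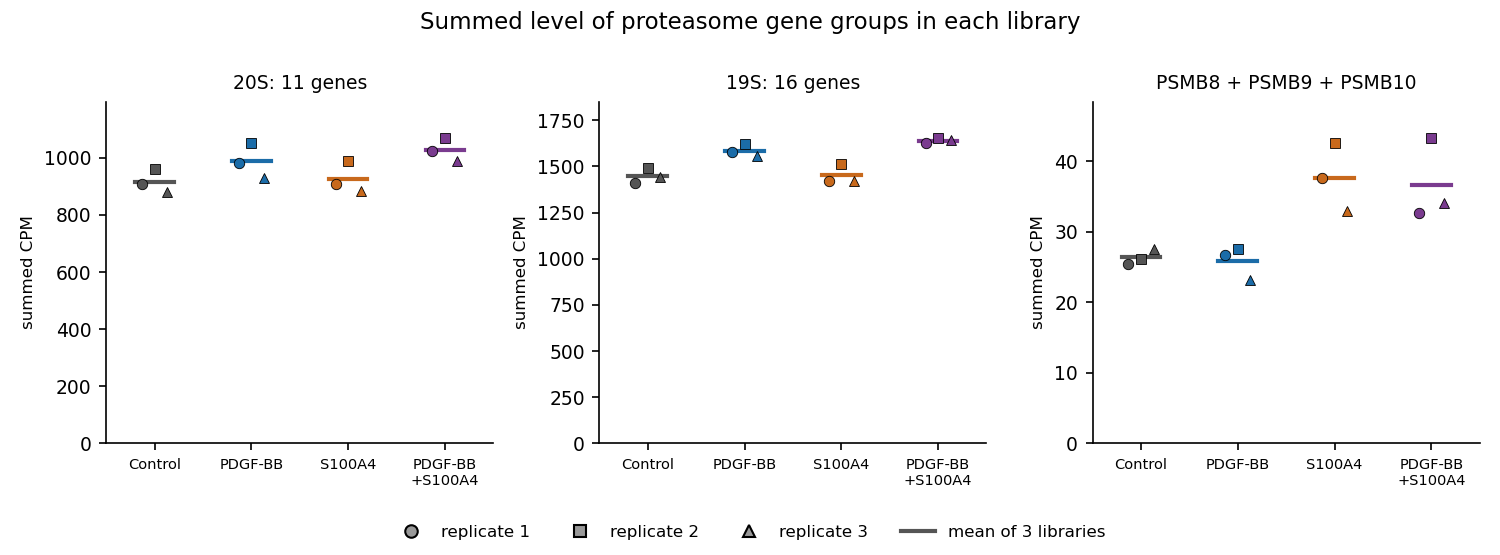
Summed CPM (y axis, from 0) of 11 genes of the 20S core, 16 genes of the 19S cap, and PSMB8, PSMB9 and PSMB10 together, in each library by treatment; symbols give the replicate number and bars the mean. The 19S sum is 1554 to 1652 CPM in the 6 libraries with PDGF-BB and 1410 to 1511 CPM in the 6 without it. The sum of the 3 immunoproteasome genes separates the libraries by S100A4 instead, mostly through PSMB10.

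The caps PSME1 and PSME2 form the PA28 ring that is often induced with the immunoproteasome; their genes lie 3.96 kb apart on chromosome 7 (PSME2 at 75154570 to 75157871, PSME1 at 75161830 to 75164531). PSME1 had only 3 to 14 counts a library, and its change with S100A4 did not pass (1.05 ± 0.54). PSME2 had 4.79, 5.12 and 4.43 CPM in control and 5.38, 6.38 and 4.74 CPM with S100A4, with overlapping groups and no call in either fit (0.20 ± 0.17). PSME4 had 75.0, 78.0 and 81.3 CPM in control and 79.2, 79.2 and 82.3 CPM with S100A4 (0.04 ± 0.06), and PSME3 changed by 0.06 ± 0.06.

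The 19S and 20S genes as a body moved little with S100A4. Their summed level over 27 genes was 2364 ± 76.0 CPM in control and 2378 ± 106 CPM with S100A4, ranges that overlap. It was 2574 ± 96.6 CPM with PDGF-BB and 2668 ± 47.4 CPM with both. The lowest library with PDGF-BB, alone or combined, was at 2483 CPM; the highest of the 3 controls was at 2452 CPM, and replicate 2 of S100A4 was at 2499.8 CPM. PSMC6, an ATPase of the 19S base, showed no call in any comparison, with 61.6, 65.6 and 61.2 CPM in control and 64.3, 67.6 and 62.9 CPM with S100A4.

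With both proteins, 3 of the 4 19S genes called with PDGF-BB (PSMD14, PSMD8 and PSMD7), PSME3 and PSMB10 were among the genes that rose; these comparisons share the control libraries. The fourth, PSMD12, was at 69.7, 81.6 and 72.8 CPM and missed the threshold without the block (0.23, adjusted p = 0.059), passing with it (adjusted p = 0.0060). Of the 41 genes, 9 rose against control, while 13.2% of all genes tested rose, and 0 fell, while 8.75% of all genes fell; 16 of the 41 had an unadjusted p under 0.05, and DESeq2 called 9 higher and 0 lower. Over all genes DESeq2 called 3165, 56.1% of them higher. With the block, 24 of the 41 rose (background 27.5%) and 2 fell (background 28.6%). The median log2 change was 0.16, beside −0.03 over all genes tested. In same-numbered pairs, 29 of the 41 were higher in all 3 (background 33.7%) and 4 lower in all 3 (background 36.6%). All treated libraries lay above all controls for 23 of the 41 (background 19.8%) and below them for 2 (background 15.8%).

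PSMB10 reached 15.5, 21.4 and 17.5 CPM with both proteins, above every control (0.72 ± 0.14, adjusted p = 0.0046). PSME3 reached 149.5, 158 and 153 CPM (0.54 ± 0.06, adjusted p = 0.00031), a call kept in all 9 fits that left out a library or a number, with and without the block. PSMD8 reached 169.9, 161 and 154 CPM (0.42 ± 0.08, adjusted p = 0.0060).

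In these 3 genes all treated libraries lay above all controls. PSMD14 was at 80.5, 77.9 and 76.4 CPM (0.33 ± 0.06, adjusted p = 0.0038) and PSMD7 at 109.8, 101 and 113 CPM (0.30 ± 0.06, adjusted p = 0.0043). Calls of PSMB10, PSMD8, PSMD14 and PSMD7 were each lost without replicate 1 (adjusted p 0.062, 0.177, 0.105 and 0.188) and without replicate 3 (0.081, 0.061, 0.051 and 0.107), and each was kept in all 9 such fits with the block.

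PSME2 reached 6.57, 7.74 and 6.55 CPM with both proteins, all above the control libraries (0.54 ± 0.17). Its adjusted p was 0.0498 without the block and 0.00093 with it. The unblocked call was lost in each of the 9 fits that left out a library or a number (log2 change 0.46 to 0.59, adjusted p 0.072 to 0.295), while the blocked call was kept in all 9. PSMB9 stood at 3.22, 5.04 and 3.58 CPM and rose with the block only (0.55 ± 0.21, adjusted p = 0.035), a call kept in 3 of 9. PSMB8, at 13.9, 16.8 and 13.0 CPM, did not pass (0.20 ± 0.15).

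The last 3 unblocked calls were core and base genes: PSMB3 of the beta ring (0.26 ± 0.08, adjusted p = 0.040), PSMA2 of the alpha ring (0.24 ± 0.07, adjusted p = 0.024) and the ATPase PSMC1 (0.22 ± 0.06, adjusted p = 0.033). PSMB3 was at 64.2, 64.7 and 61.0 CPM in control and at 78.2, 77.0 and 71.4 CPM with both. PSMA2 was at 92.1, 94.6 and 89.3 CPM in control and at 105, 110.1 and 111 CPM with both. In neither gene did the groups overlap. PSMB3, PSMA2 and PSMC1 kept their unblocked calls in 2, 3 and 2 of the 9 fits that left out a library or a number and lost them under upper-quartile scaling (adjusted p 0.125, 0.089 and 0.123), as PSME2 did (0.082). A fit of the 2 groups alone ended the 4 calls as well (adjusted p 0.051 to 0.082), and RLE scaling (0.051 to 0.059) and a filter-free fit (0.061 to 0.074) ended those of PSMB3, PSMC1 and PSME2, leaving 6 of the 9 calls under each.

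With the block 24 of the 41 genes rose, against 27.5% of all genes, the background for the role counts below as well. With upper-quartile scaling beside the block 14 rose and 4 fell. Under that setting 7298 of all genes were called, 38.0% of those calls being higher. With the block and TMM scaling the rise held for 4 of 6 alpha-ring genes (PSMA5 at 0.32, PSMA2, PSMA3 and PSMA7), 4 of 5 constitutive beta-ring genes (PSMB3, PSMB4, PSMB7 and PSMB1), 3 of 6 ATPases (PSMC1, PSMC2 and PSMC4) and 8 of 10 non-ATPase subunits, PSMD4 and PSMD6 being the exceptions. PSMA7, an alpha subunit at 147, 157 and 131 CPM in control and 164, 164 and 145 CPM with both, is an example of a gene with overlapping groups that was higher in every same-numbered pair (0.12 ± 0.04 with the block, adjusted p = 0.012). The rise also held for PSMD5 among 3 chaperones of the 19S base (0.13). PSMG3 did not pass (0.07 ± 0.10). Of the 26 blocked calls, 14 held in all 9 fits that left out a library or a number and 6 in fewer than 5 of them, among these PSMA7, PSMB1, PSMC4 and PSMD5.

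PSMF1 again moved the other way, at 33.6, 33.4 and 40.2 CPM with both against 40.9, 38.6 and 50.5 CPM in control. It fell with the block (−0.27 ± 0.06, adjusted p = 0.0014) and in all 9 blocked fits that left out a library or a number, but did not pass without the block (−0.28 ± 0.15, adjusted p = 0.23). The second gene lower with the block was PSME3IP1, which is no subunit (−0.19 ± 0.07, adjusted p = 0.033; kept in 2 of 9). PSME4, the cap also known as PA200, was lowest with both proteins, at 70.6, 74.5 and 73.2 CPM. All 3 values lay below the controls, without a call (−0.10 ± 0.06; blocked adjusted p = 0.066).

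**Figure D4:**
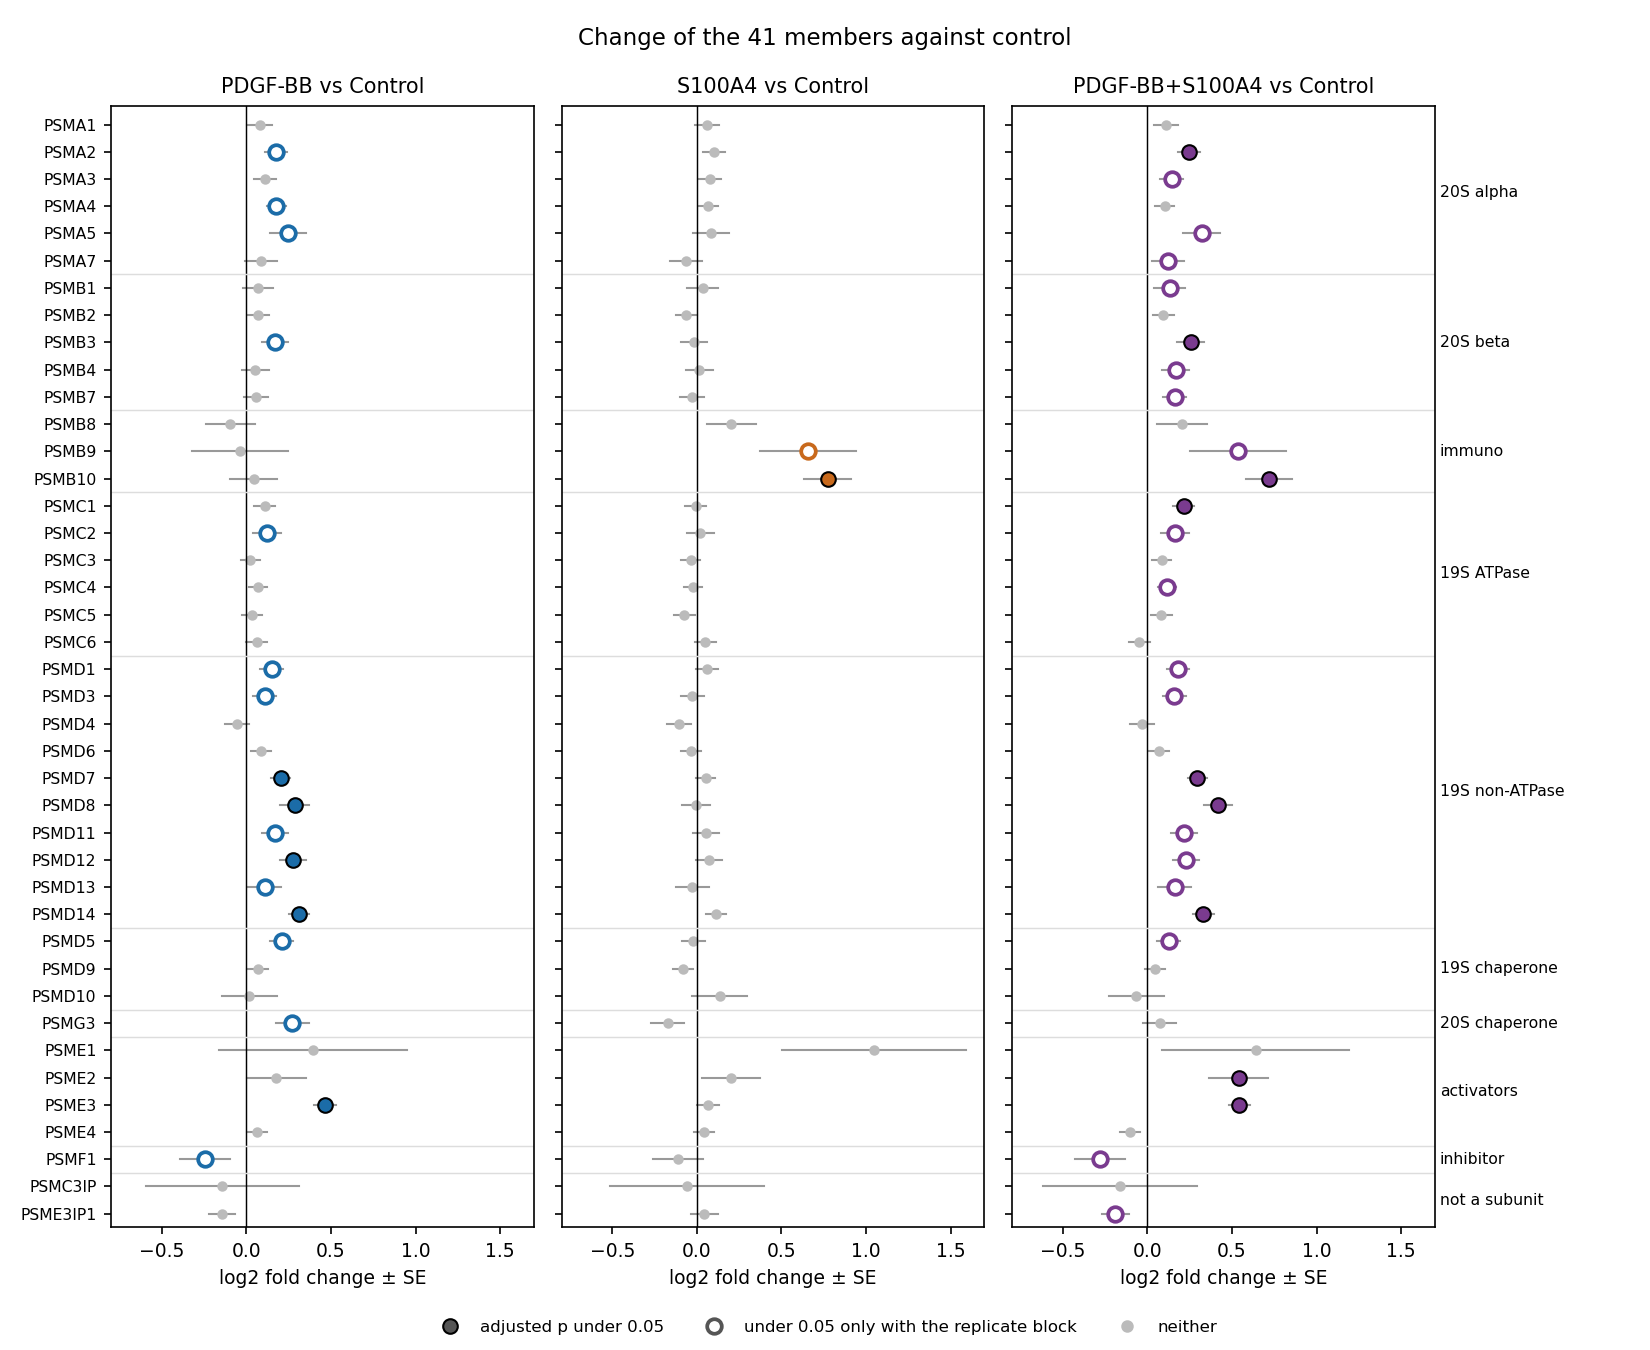
Log2 fold change against control ± SE (x axis) of the 41 genes, grouped by role (rows), for each of the 3 treatments; filled points passed an adjusted p of 0.05, open rings passed with the replicate block alone, and grey points passed in neither fit. PDGF-BB gives 5 filled points, S100A4 1 and the combination 9, with PSMB10 filled in the latter 2 and PSMF1 and PSME3IP1 the rings left of 0.

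Adding S100A4 to PDGF-BB changed few of these genes. Without the block 0 of 41 passed in edgeR, while 0.273% of all genes tested rose; 2 of the 41 had an unadjusted p under 0.05, and DESeq2 called 1. Over all genes DESeq2 called 123, 91.9% of them higher. With the block 1 of the 41 rose (background 5.11%) and 1 fell (background 2.03%). The groups did not overlap for 4 genes that were higher (background 5.86%) and 3 that were lower (background 2.84%), and in same-numbered pairs 14 were higher in all 3 (background 22.8%) and 5 lower (background 18.9%). PSMB10 was the gene that rose, from 10.3, 12.4 and 11.3 CPM with PDGF-BB to 15.5, 21.4 and 17.5 CPM with both. The change of 0.68 ± 0.14 had an adjusted p of 0.12 without the block and of 0.00016 with it, kept in all 9 blocked fits that left out a library or a number. PSME4 was the gene that fell, from 81.9, 77.0 and 85.7 CPM to 70.6, 74.5 and 73.2 CPM (−0.16 ± 0.04 with the block, adjusted p = 0.039). The call of PSME4 was kept in 3 of 9 such fits, and was lost among others without PDGF-BB replicate 1 (adjusted p = 0.187) and without replicate 3 of both groups (0.395). PSME2 had the third smallest p and did not pass (0.36 ± 0.17; blocked adjusted p = 0.053).

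Adding PDGF-BB to S100A4 raised 6 of the 41 genes, while 9.45% of all genes tested rose, and lowered 0, while 5.51% of all genes fell; 14 of the 41 had an unadjusted p under 0.05, and DESeq2 called 6 higher and 1 lower. Over all genes DESeq2 called 2330, 56.6% of them higher. With the block 23 of the 41 rose (background 24.9%) and 3 fell (background 22.9%). In same-numbered pairs 29 of the 41 were higher in all 3 (background 33.6%) and 4 lower (background 34%), and the groups did not overlap for 17 that were higher (background 17%) and 3 that were lower (background 12.9%). The unblocked calls were PSME3 (0.48 ± 0.06, adjusted p = 0.0011), PSMD8 (0.42 ± 0.08), PSMB3 (0.27 ± 0.08), PSMD7 (0.25 ± 0.06), PSMC1 (0.22 ± 0.06) and PSMD14 (0.22 ± 0.06). PSME3 went from 109.8, 118 and 102 CPM to 149.5, 158 and 153 CPM, and PSMD8 from 117, 131 and 114 CPM to 169.9, 161 and 154 CPM. Neither pair of groups overlapped. Calls of PSME3 and PSMD8 were lost without replicate 1 (adjusted p 0.117 and 0.290) and without replicate 3 (0.061 and 0.083), and kept in all 9 blocked fits. PSMD7, PSMB3 and PSMC1 kept theirs in 2 of 9 unblocked fits each and PSMD14 in 0, and each of these 4 passed in all 9 blocked ones. A fit of the 2 groups alone ended the unblocked calls of all 4 (adjusted p 0.098 to 0.131), upper-quartile scaling (0.091 to 0.106) and a filter-free fit (0.069 to 0.072) those of PSMB3, PSMC1 and PSMD14, and RLE scaling those of PSMB3 and PSMC1 (0.063 and 0.062). The genes lower with the block were PSME4 (−0.14, adjusted p = 0.018), PSMF1 (−0.16, adjusted p = 0.039) and PSME3IP1 (−0.23, adjusted p = 0.014), with calls kept in 5, 3 and 4 of 9 blocked fits. PSMB10 did not change detectably (−0.05 ± 0.14), nor did PSMB9 (−0.12 ± 0.28) or PSMB8 (0.00 ± 0.15).

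Whether the S100A4 effect differed in the presence of PDGF-BB was tested as an interaction, and 0 of the 41 genes passed in edgeR, as did 0% of all genes tested; 1 of the 41 had an unadjusted p under 0.05, and DESeq2 called 0. Over all genes DESeq2 called 1. With the block 0 of the 41 passed as well, with 5 at an unadjusted p under 0.05. Of all genes, 0.0161% were called higher and 0.0964% lower with the block. In the 3 replicate numbers the interaction was positive throughout for 12 of the 41 (background 20.3%) and negative throughout for 6 (background 16.3%). The smallest p was that of PSME4 (−0.20 ± 0.08; blocked adjusted p = 0.32). PSMC6 and PSMA4 followed, at −0.15 ± 0.09 and −0.14 ± 0.08. For PSMB10 the interaction was −0.10 ± 0.19 and for PSME3 0.02 ± 0.09.

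Across the comparisons, 10 of the 41 genes passed at least once without the block and 32 with either fit. The same count over all genes was not made, so these 2 counts have no background beside them. In the single comparison of both proteins with control, 27.5% of all genes rose and 28.6% fell with the block. The 9 that never passed were PSMA1, PSMB8, PSMC6, PSMD4, PSMD6, PSMD9, PSMD10, PSME1 and PSMC3IP. PSMD10, a chaperone of the 19S base also known as gankyrin, was at 11.7 CPM on average and varied by 0.30 between replicate numbers. PSMC3IP varied most between numbers among the 41, by 1.17, with 2.93 CPM in replicate 3 and 6.63 CPM in replicate 2. The 40 genes with RefSeq coordinates lie on 14 chromosomes.

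Genes that work with the proteasome were read from lists chosen with earlier results of these data known. Of 10 measured partners that bind or mature the particle, 0 passed in edgeR with PDGF-BB, S100A4 or both, and with the block 4, 0 and 3 rose and 0 fell. Without the block 9.09%, 0.554% and 13.2% of all genes rose in these 3 comparisons. The blocked shares of all genes that rose were 24.3%, 6.46% and 27.5%, so 3 of 10 with both is near the background. Those that fell were 24.5%, 4.28% and 28.6%. The 4 were AKIRIN2, which carries proteasomes into the nucleus (0.29 ± 0.04 with the block), TXNL1, a thioredoxin bound to the 19S cap (0.23 ± 0.06), the cap's de-ubiquitinase UCHL5 (0.23 ± 0.06) and PITHD1 (0.12 ± 0.05). POMP, the maturation factor of the 20S core, did not pass with PDGF-BB (0.13 ± 0.05, blocked adjusted p = 0.067).

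Of 16 measured genes for ubiquitin, substrate shuttles and the NFE2L1 pathway, 0 rose and 1 fell with PDGF-BB, against 9.09% and 5.62% of all genes. With the block 5 rose and 6 fell, against 24.3% and 24.5%. The unblocked changes of the 16 ran from −0.53 to 0.30, and the lowest, of a gene not named here, did not pass. NFE2L2, a transcription factor of the oxidative stress response, was the one that fell without the block (−0.26 ± 0.07, adjusted p = 0.028). With S100A4 it was higher by 0.36, 0.35 and 0.34 in the 3 same-numbered pairs, without a call in the unblocked fit (adjusted p = 0.064) and with one in the blocked fit (adjusted p = 5.7e-05). NFE2L1, the transcription factor known to restore proteasome genes after proteasome inhibition, was lower by 0.17 ± 0.03 with PDGF-BB in the blocked fit (adjusted p = 0.00080) and did not pass in the unblocked one (adjusted p = 0.76). With S100A4 the list had 0 genes past the threshold, against 0.554% of all genes higher and 0.00804% lower (2 higher with the block, background 6.46%). With both, 2 rose (background 13.2%) and 0 fell (background 8.75%), and 5 and 4 did with the block (background 27.5% and 28.6%). The 2 were NPLOC4 (0.25 ± 0.06) and UFD1 (0.25 ± 0.07), which together recruit ubiquitinated proteins to the VCP unfoldase.

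Of 9 measured genes of MHC class I antigen processing, 0 rose (background 9.09%) and 1 fell (background 5.62%) with PDGF-BB. With the block 2 rose (background 24.3%) and 5 fell (background 24.5%). The one was IRF1, a transcription factor known to drive PSMB9 and TAP1, lower by 0.76, 0.57 and 1.09 on the log2 scale in pairs 1, 2 and 3 (−0.79 ± 0.15, adjusted p = 0.0069). With S100A4 alone IRF1 was higher by 0.58, 0.76 and 0.82 in the same pairs. That change of 0.72 ± 0.15 did not pass without the block (adjusted p = 0.092) and passed with it (adjusted p = 0.00023). With both proteins the highest change against control among the 9 genes was 0.25. From PDGF-BB to both, the highest change among the 9 was 0.77, while IRF1 had changed by −0.79 from control to PDGF-BB. In the unblocked fit IRF1 with both proteins was therefore no higher than in control. PSMB10 and PSMB9 changed by 0.72 and 0.54 with both against control, and a link to IRF1 was not tested. With S100A4, 0 of the 9 passed without the block, where 0.554% of all genes rose and 0.00804% fell. With the block 4 rose (background 6.46%): IRF1, the peptide trimmer ERAP1 (0.35 ± 0.07), the peptide transporter subunit TAP2 (0.21 ± 0.06) and its tether TAPBP (0.23 ± 0.04). With both proteins 1 rose (background 13.2%) and 0 fell (background 8.75%), and 4 and 2 did with the block (background 27.5% and 28.6%). The one was CALR, an endoplasmic reticulum chaperone (0.25 ± 0.07, adjusted p = 0.025). Of the list's other genes, TAP1, the second transporter subunit, fell with PDGF-BB in the blocked fit (−0.16 ± 0.06, adjusted p = 0.043). With both proteins the changes of the 9 genes against control ran from −0.77 to 0.25. The lowest was that of a gene not named here, and it did not pass without the block.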

How the data were processed

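The authors deposited 1 table of raw read counts, whole numbers for 21153 Ensembl gene identifiers in 12 libraries; every sample column was mapped by its label and 0 columns were left out. Per the labels' protocols, TruSeq RNA libraries were read on a HiSeq4000, single-end, 100 nt. The submitters' processing notes name CASAVA 1.8.2, STAR 2.4, featureCounts 1.4.6 and the build Sscrofa11.1. Whether counting used strand, and what it did with reads that match more than 1 place, was not given in the sources used here. Overlapping genes and near-identical copies are therefore uncertain. Symbols were found for 14572 identifiers.

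Genes were kept by filterByExpr (minimum count 10, by group), scaled by TMM and tested with the quasi-likelihood test of edgeR 4.0.16 in R 4.3.3, two-sided, over all 12 libraries with the 4 group means as terms. DESeq2 1.42.0, the replicate block, other scalings and filters, and leaving out libraries were alternatives. SE is the log2 change divided by the square root of F, and same-numbered differences are of log2 CPM with a prior count of 2. The scripts were tested on simulated data. Totals of 21455021 to 32448438 counts leave PSME1, at 3 to 14 counts, as the one thinly counted gene; floors cover counting error only.

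The replicate numbers pair the libraries: for 18 couples of same-numbered libraries from different treatments, the correlation across genes of their distances from the treatment means was 0.746 to 0.908, and for 36 couples with unlike numbers it was −0.676 to 0.136. Within a treatment the distances of the 3 libraries sum to 0 for each gene. Where same-numbered correlations are high, those of unlike numbers are therefore pushed below 0 by the measure itself. The block lowered edgeR's biological coefficient of variation from 27.2% to 5.14%. Libraries within a group differed beyond sampling noise (chi-square per gene at least 18.4).

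Named genes were those past an adjusted p of 0.05 in a comparison (the 10 largest where more passed in a direction, the 3 smallest p where none did), with and without the block, plus PSMB7 to PSMB10, PSME1 to PSME4, PSMD14, PSMC6, PSMA7 and PSMF1, and up to 4 genes of each partner list. The genes and lists were chosen with earlier results of these data known. UCHL5, PITHD1, NFE2L1, TAP1, PSMD4, PSMD10 and PSMC3IP were named outside this rule, after their values were seen. The ratio of PSMB10 to PSMB7 could be formed; those of PSMB8 to PSMB5 and PSMB9 to PSMB6 were not, since PSMB5 and PSMB6 are not analysed here. No sequences are printed.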

Additional observations from a re-analysis of the deposited data

How the results depend on the processing

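Counts past the threshold among the 41 genes, PSMC3IP and PSME3IP1 included, moved most with the replicate block. In the order PDGF-BB against control, S100A4 against control, both against control, both against PDGF-BB and both against S100A4, the counts were 5, 1, 9, 0 and 6 without it. With the replicate block they were 17, 2, 26, 2 and 26, with the block and RLE scaling 15, 2, 26, 2 and 25, and with the block and upper-quartile scaling 12, 1, 18, 2 and 18. Over all genes the calls, in the same order, were 1830, 70, 2732, 34 and 1862 without the block. With the block they were 6075, 1336, 6982, 888 and 5948. The block with RLE scaling gave 6093, 1315, 7013, 883 and 5985, and with upper-quartile scaling 6251, 1451, 7298, 927 and 6121. Without the block, RLE scaling gave 3 and 0 in the first 2 comparisons, upper-quartile scaling gave 2 in the first, no filter gave 2, 0 and 3 in the first, second and last, and fitting the compared groups alone gave 2, 0, 5, 0 and 2. Over all genes, RLE scaling gave 1824 and 68 calls in those first 2, and upper-quartile scaling 1907 in the first. No filter gave 1556, 63 and 1565 of all genes in its 3 comparisons, and the compared groups alone 1060, 28, 1911, 9 and 998. For both against control, RLE scaling and no filter gave 6 of the 41 each, and 2684 and 2397 of all genes. DESeq2 gave 1 of the 41 for both against PDGF-BB, and 123 of all genes. Upper-quartile scaling split the calls into 5 higher and 1 lower for both against control and 3 higher and 2 lower for both against S100A4, and with the block into 10 and 2 for PDGF-BB, 14 and 4 for both against control and 14 and 4 for both against S100A4. Over all genes it moved the share of calls that were higher from 61.8% to 49.0% (PDGF-BB), from 60.1% to 46.1% (both against control) and from 63.2% to 49.9% (both against S100A4), and with the block from 71.6% to 59.5% for both against PDGF-BB. With the block and upper-quartile scaling, 39.9%, 38.0% and 41.3% of all calls were higher for PDGF-BB, both against control and both against S100A4. The cause of these shifts was not tested.

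Leaving out each library or replicate number in turn without the block gave 0 to 6, 0 to 0, 1 to 13, 0 to 0 and 0 to 8 calls; without replicate 1 the counts were 0, 0, 1, 0 and 0, and without replicate 3 they were 1, 0, 1, 0 and 0. Calls over all genes dropped as well, to 131, 1, 502, 1 and 10 without replicate 1 and to 377, 0, 991, 0 and 274 without replicate 3. With the replicate block, leaving out replicate numbers 1, 2 and 3 gave 11, 18 and 10 calls for PDGF-BB, 15, 23 and 22 for both against control and 9, 26 and 13 for both against S100A4. Over all genes these fits called 4372, 5522 and 4446 for PDGF-BB, 5312, 6594 and 5437 for both against control and 4009, 5904 and 4241 for both against S100A4. Leaving out single libraries with the block gave 12 to 15 (14 without control replicate 1), 21 to 24, and 16 to 26 (22 without replicate 1 of both) in these 3. With the block the range was 1 to 2 for S100A4 and 1 to 3 for both against PDGF-BB. The ranges in this paragraph have no count over all genes beside them. The interaction had 0 calls under every setting run. Single-gene changes were recomputed under the alternatives only for the 73 that passed the threshold with or without the block. None of these changed sign, which says little since they were picked for passing. PSME1 was measured on 3 to 14 counts a library, and why its counts were so low was not tested.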
